A study of Danio rerio with 3 samples.

Results

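The Myc and Myb families were followed across 3 cell populations sorted from the kidney of the adult zebrafish, the organ in which fish blood cells are made. The 9 genes described are the Myc genes myca, mycb, mych, mycn, and mycla, their dimer partner max, and the Myb genes myb, mybl1, and mybl2b. They were taken by gene symbol from the 32057 genes counted. Cells came from fish labelled as wild type that carried 2 transgenes, gata2a:GFP and runx1:mCherry, after red cells had been lysed and granulocytes gated away by side scatter. The mCherry transgene is driven by an enhancer of mouse Runx1, so mCherry marks the activity of that enhancer rather than of the fish gene. The populations were gata2a+ runx1+ (called double-positive here), gata2a- runx1+ (runx1 single-positive), and gata2a+ runx1- (gata2a single-positive), with 1 RNA-seq library each. GEO labels them, in the same order, as HSCs, as progenitors primed for erythroid or myeloid fates, and as progenitors primed for lymphoid fates. The number of fish and of cells behind each library was not given in the sources used here.

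Myc proteins are transcription factors that bind DNA as dimers with Max and drive ribosome production, nucleotide synthesis, and cell growth. Proteins of the Mxd and Mnt families compete with Myc for Max and act as repressors. Mammalian MYC has a pair of counterparts in zebrafish, myca and mycb, while mycn and mycla correspond to N-Myc and L-Myc, and mych is a further Myc gene of fish. Myb proteins form a second family of DNA-binding factors. c-Myb, the product of myb, is needed for blood stem and progenitor cells in mouse and zebrafish, B-Myb works with the MuvB complex to switch on mitotic genes in dividing cells, and A-Myb is known in mammals from germ cells and germinal centre B cells.

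Between 8094670 and 8205803 reads were counted on genes per library, recovered exactly from the deposited RPM (reads scaled to the total of reads counted on genes). All intervals are 95% intervals for counting error alone and treat each read as an independent molecule. PCR copies are not independent, so the intervals and the p-values below overstate the precision by an unknown amount. With 1 library per population no difference has a replicate check. Fisher's exact test, two-sided, adjusted by the Benjamini-Hochberg method across genes read in either library, compares 2 libraries and not the populations. A floor of 3 reads, about 0.37 RPM, was taken as the limit of detection. The labels were set beside marker genes. Several of these, gata1a, klf1, pax5, and rag1 among them, were reported by the study from these same libraries. They are therefore no independent check of the labels. The transcript of gata2a followed the GFP gate, at 344 RPM, 11.8 RPM, and 1354 RPM in the order double-positive, runx1 single-positive, and gata2a single-positive, while runx1 itself had 39, 29, and 19 reads. Of 12 erythroid marker genes averaging 1 RPM or more, 11 were highest in runx1 single-positive cells, with gata1a and klf1 listed at 0 in gata2a single-positive cells. All 12 B cell markers averaging 1 RPM or more, of 14 listed, were highest in gata2a single-positive cells. pax5 and rag1 were listed at 0 in the other libraries and passed this minimum through that 1 library alone. Among the 12, btk was nearly level with double-positive cells, at 84.9 RPM against 83.6 RPM. cd79a had 49 reads in double-positive cells. Of 10 T and NK cell markers, 5 averaged 1 RPM or more, and 4 of these were highest in gata2a single-positive cells. Among them, nkl.3 was listed at 0 in the other libraries. Of 9 thrombocyte markers, 5 were highest in runx1 single-positive cells, 3 in double-positive cells, and 1 in gata2a single-positive cells. Against the labels, 8 of 9 macrophage markers were highest in gata2a single-positive cells and 8 were lowest in runx1 single-positive cells. The paper itself describes myeloid as well as lymphoid signatures in gata2a single-positive cells. Also against the labels, rag2 had 9 reads in double-positive cells and was listed at 0 elsewhere. It averaged under 1 RPM and was left out of the B cell count. Of 5 neutrophil markers, 1 was highest in runx1 single-positive cells and 2 in each of the others. All these counts take only genes averaging 1 RPM or more. A marker read almost only in 1 library passes this minimum through that library, so the counts are partly fixed by it. Of all 12339 genes at this minimum, 31.1% were highest in double-positive, 31.6% in runx1 single-positive, and 37.3% in gata2a single-positive cells. The share lowest in runx1 single-positive cells was not counted. In such bulk samples, fewer cells of a type and less RNA per cell cannot be told apart. RPM are not corrected for transcript length, so values are compared for the same gene between libraries and not between genes.

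Reads of the 5 Myc genes together made up 1427 RPM in double-positive cells, 1580 RPM in runx1 single-positive cells, and 649.9 RPM in gata2a single-positive cells. The family total thus differed little between the populations that carry mCherry, by 1.11-fold, and was 2.20-fold (interval 2.13 to 2.27) and 2.43-fold (2.35 to 2.51) higher in these than in gata2a single-positive cells. Behind this near-equal total, the single genes did not move together: myca had its highest level in double-positive cells and mycb in runx1 single-positive cells, while mych, which took the most Myc reads in every library, was nearly level between them. Of the 9 genes, 8 averaged 1 RPM or more over the libraries, and mycn did not.

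myca (ENSDARG00000045695) was at 381 RPM (367.7 to 394.5) in double-positive cells, 162 RPM (153.1 to 170.5) in runx1 single-positive cells, and 162 RPM (153.4 to 171.0) in gata2a single-positive cells. The double-positive library stood above the other two, which did not differ within counting error. The ratio was 2.36 (2.21 to 2.52) against runx1 single-positive cells and 2.35 (2.20 to 2.51) against gata2a single-positive cells. Between the single-positive populations it was 0.998 (0.924 to 1.08, adjusted p = 1, Fisher's exact test). The study had picked out myca from these same libraries, so its place in double-positive cells has no independent support here.

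mycb (ENSDARG00000007241), the other counterpart of mammalian MYC, had a different order. It was at 110.1 RPM (103.1 to 117.5) in double-positive cells, 424 RPM (410.4 to 438.5) in runx1 single-positive cells, and 48.7 RPM (44.1 to 53.7) in gata2a single-positive cells. All 3 intervals lay apart, with the runx1 single-positive library far above the rest. mycb was 3.86-fold (3.58 to 4.15) higher there than in double-positive cells and 8.72-fold (7.85 to 9.70) higher than in gata2a single-positive cells, and the double-positive library was itself 2.26-fold (2.01 to 2.55) above the gata2a single-positive library. Of all genes averaging 1 RPM or more, 3.40% had a larger ratio between runx1 and gata2a single-positive cells. The erythroid marker list has its highest summed level in the same library, at 3830 RPM over 14 genes against 580.5 RPM in double-positive cells and 254.0 RPM in gata2a single-positive cells. Its part in the mycb difference was not tested.

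mych (ENSDARG00000077473) was at 879.7 RPM (859.5 to 900.3) in double-positive cells, 944 RPM (923.3 to 965.3) in runx1 single-positive cells, and 413 RPM (399.7 to 427.7) in gata2a single-positive cells. It was nearly level in the mCherry-positive populations, where the ratio of runx1 single-positive to double-positive cells was 1.07 (1.04 to 1.11). Against gata2a single-positive cells the ratio was 2.13 (2.04 to 2.22) for double-positive cells and 2.28 (2.19 to 2.38) for runx1 single-positive cells. The first of these fell just below 2-fold, to 0.99 on the log2 scale, with the size factors of DESeq2.

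mycla (ENSDARG00000006003), an L-Myc gene, was likewise lowest in gata2a single-positive cells. It was at 56.1 RPM (51.2 to 61.5), 50.2 RPM (45.6 to 55.3), and 25.8 RPM (22.6 to 29.6) in double-positive, runx1 single-positive, and gata2a single-positive cells. The first 2 libraries overlapped in their intervals, with a ratio of 1.12 (0.976 to 1.28, adjusted p = 0.183, Fisher's exact test). They were 2.17-fold (1.84 to 2.57) and 1.95-fold (1.64 to 2.31) above the gata2a single-positive library.

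mycn (ENSDARG00000006837), the N-Myc gene, had 6 reads in double-positive cells, which is 0.74 RPM (0.339 to 1.61), and was listed at 0 in both other libraries. Counted against the floor of 3 reads per library, its level in double-positive cells was 2.02-fold that of the runx1 single-positive library and 1.99-fold that of the gata2a single-positive one. The intervals of these ratios from the reads themselves, without the floor, reached down to 1.19 and 1.17. Fisher's exact test gave an adjusted p of 0.034 for the former and 0.0578 for the latter. The interval of a gene without a read reaches 0.468 RPM and 0.475 RPM in these libraries, so the difference rests on very few reads. A value of 0 may not mean absence of the transcript, since plk1, a kinase that dividing cells use, was also listed at 0 in all 3 libraries.

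max (ENSDARG00000024844), the obligate partner of Myc, varied least of the 8 genes above 1 RPM. It was at 215 RPM (205.6 to 225.8) in double-positive cells, 229 RPM (218.5 to 239.2) in runx1 single-positive cells, and 254 RPM (243.3 to 265.2) in gata2a single-positive cells. The library with the lowest Myc total therefore had the highest max. The ratio of gata2a single-positive to double-positive cells was 1.18 (1.11 to 1.26), and that of gata2a to runx1 single-positive cells was 1.11 (1.04 to 1.18). Between the mCherry-positive populations a difference was not detectable at this depth, with a ratio of 0.942 (0.882 to 1.01, adjusted p = 0.137, Fisher's exact test).

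**Figure D1:**
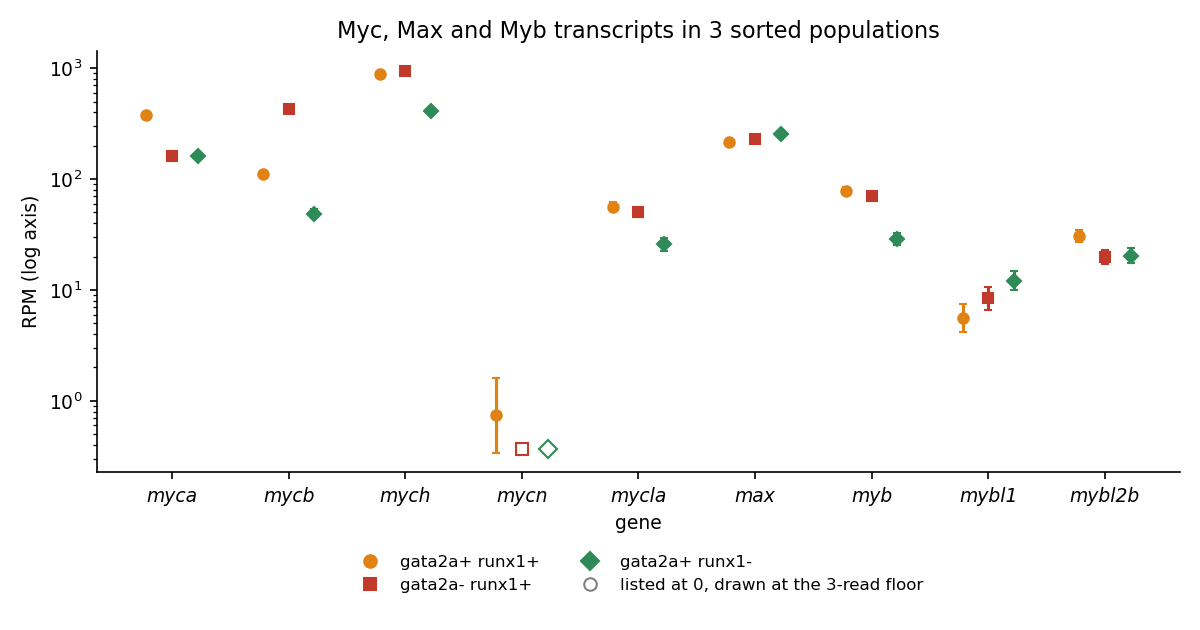
RPM of the 9 genes (log axis) in the 3 libraries, with 95% Wilson intervals of counting error; open markers are genes listed at 0, drawn at the floor of 3 reads. myca stands out in gata2a+ runx1+ cells at 381 RPM, mycb in gata2a- runx1+ cells at 424 RPM, and max lies between 215 and 254 RPM throughout.

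Paralog use was examined as the share of the family's reads taken by each gene, and as the ratio of the reads of 2 paralogs, which can be compared between libraries whatever their lengths and depths. Of the reads of myca and mycb together, myca took 77.6% (exact interval 76.3 to 78.9) in double-positive cells, 27.6% (26.3 to 28.9) in runx1 single-positive cells, and 76.9% (74.8 to 78.9) in gata2a single-positive cells. The gata2a-positive populations thus used the pair in the same proportion within counting error, although the summed level of the pair was 490.9 RPM in one and 210.6 RPM in the other. In runx1 single-positive cells, at 585.8 RPM, the proportion was turned around.

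Put as a ratio of reads, myca to mycb was 3.46 in double-positive cells, 0.381 in runx1 single-positive cells, and 3.33 in gata2a single-positive cells. The ratio in double-positive cells was 9.09 times (8.23 to 10.03) that in runx1 single-positive cells and 1.04 times (0.906 to 1.19) that in gata2a single-positive cells. The shares of mych and mycla shifted far less. mych took 61.6% (60.7 to 62.5), 59.8% (58.9 to 60.6), and 63.6% (62.3 to 64.9) of the Myc reads, and mycla took 3.93%, 3.18%, and 3.97%, in double-positive, runx1 single-positive, and gata2a single-positive cells.

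The ratio of mych to mycla was 15.7, 18.8, and 16.0 in the same order, and its change from double-positive to gata2a single-positive cells had an interval that included no change (0.979, 0.823 to 1.16). Between double-positive and gata2a single-positive cells, the ratios of ratios of all 6 pairs of myca, mycb, mych, and mycla lay between 0.979 and 1.11. The interval of myca to mych (1.11, 1.02 to 1.19) did not include 1, and those of the other 5 pairs did. These 4 genes were lower in gata2a single-positive cells by between 2.13-fold and 2.35-fold against the double-positive library. Against runx1 single-positive cells the ratios of the double-positive library spread from 0.259 for mycb to 2.36 for myca. myclb, a further L-Myc gene, is left out of these pairs and of the family totals and shares. It was 11.4-fold lower in gata2a single-positive than in double-positive cells, with 13 reads against 149, and so did not keep this balance.

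**Figure D2:**
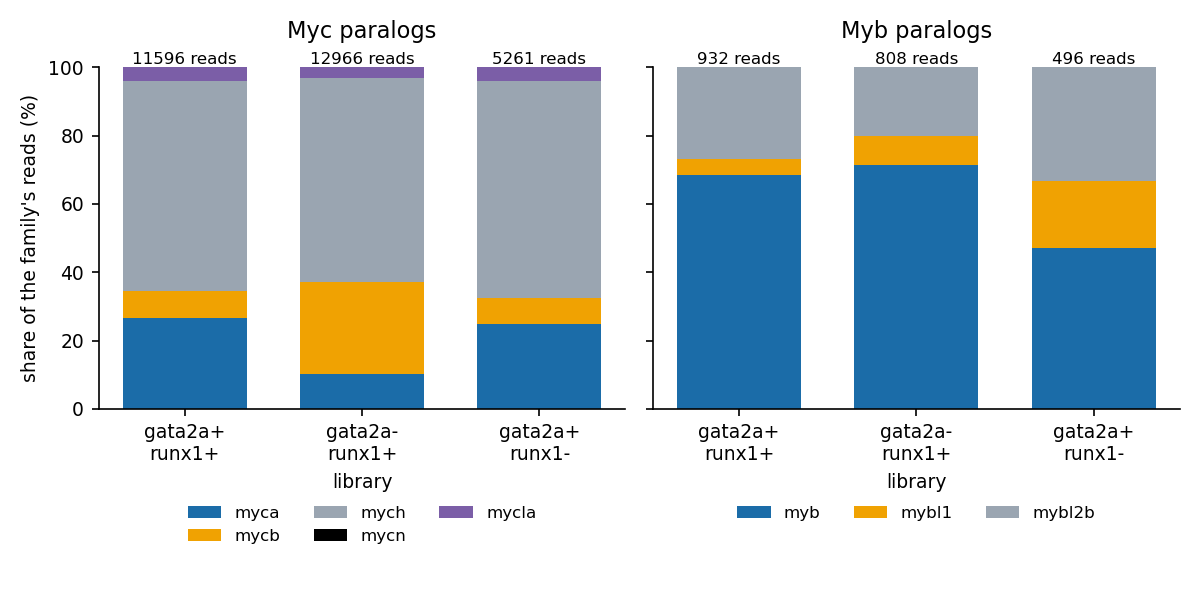
Share of the reads of the Myc genes (left) and the Myb genes (right) taken by each paralog in each library, in percent, with the reads of the family above each bar; mycn is too rare to be seen. The mycb share is 7.71%, 26.9%, and 7.49% from left to right, and the myb share is 68.5%, 71.3%, and 47.0%. Shares and totals leave out myclb and mybl2a, and shares are not corrected for transcript length.

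The Myb genes differed from each other in another way. Their reads together, without the paralog mybl2a, were at 114.7 RPM, 98.5 RPM, and 61.3 RPM in double-positive, runx1 single-positive, and gata2a single-positive cells. Each gene had its own order. myb (ENSDARG00000053666) was at 78.5 RPM, 70.2 RPM, and 28.8 RPM, so that the mCherry-positive libraries overlapped and the gata2a single-positive library lay below both. The ratio to gata2a single-positive cells was 2.73 (2.35 to 3.18) for double-positive cells and 2.44 (2.09 to 2.85) for runx1 single-positive cells.

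mybl1 (ENSDARG00000030999), the A-Myb gene, had the reverse order. It was at 5.54 RPM (4.14 to 7.41) in double-positive cells, 8.41 RPM (6.65 to 10.6) in runx1 single-positive cells, and 12.1 RPM (9.94 to 14.8) in gata2a single-positive cells, from 45, 69, and 98 reads. Only the first and the last of these libraries had intervals that lay apart, and the ratio of gata2a single-positive to double-positive cells was 2.19 (1.52 to 3.18, adjusted p = 2.45e-05, Fisher's exact test). It was the only one of the 9 genes over 2-fold higher in gata2a single-positive cells than in another library. The B cell marker list was highest in the same library, at 2951 RPM over 14 genes against 157.6 RPM in double-positive and 83.5 RPM in runx1 single-positive cells, and its part in the mybl1 difference was not tested.

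mybl2b (ENSDARG00000032264), a B-Myb gene, was at 30.7 RPM (27.1 to 34.7) in double-positive cells, 19.9 RPM (17.0 to 23.2) in runx1 single-positive cells, and 20.4 RPM (17.5 to 23.7) in gata2a single-positive cells. As with myca, the double-positive library was high and the other two were alike, but the difference was smaller. It was 1.54-fold (1.26 to 1.89) against runx1 single-positive cells and 1.504-fold (1.23 to 1.84) against gata2a single-positive cells, both under 2-fold. Its paralog mybl2a (ENSDARG00000095241), counted apart, was at 20.1 RPM, 18.7 RPM, and 13.2 RPM, and differed between the mCherry-positive libraries by less than could be detected (adjusted p = 0.63, Fisher's exact test).

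The share of the Myb reads taken by myb was 68.5% (exact interval 65.4 to 71.4) in double-positive cells, 71.3% (68.0 to 74.4) in runx1 single-positive cells, and 47.0% (42.5 to 51.5) in gata2a single-positive cells. That of mybl1 was 4.83% (3.54 to 6.41), 8.54% (6.71 to 10.7), and 19.8% (16.3 to 23.5). These shares leave out mybl2a, which had 163, 153, and 107 reads in the same order, and would be lower with it. The ratio of myb to mybl1 was 14.2 in double-positive cells, 8.35 in runx1 single-positive cells, and 2.38 in gata2a single-positive cells, so it was 5.96 times (4.003 to 8.95) higher in the first than in the last. The ratio of myb to mybl2b was 2.56, 3.53, and 1.41, highest in runx1 single-positive cells, where it was 1.38 times (1.09 to 1.74) that of double-positive cells.

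Counted over the 9 genes, 2 (myca and mycn, of which mycn averaged under 1 RPM and is outside the background) were over 2-fold higher in double-positive than in runx1 single-positive cells, against 20.9% of the 12339 genes averaging 1 RPM or more, and 1 (mycb) was over 2-fold lower, against 12.7% of all genes. Under each other scaling tried, mycn was below 2-fold and the first count was 1. Against gata2a single-positive cells, 5 genes (myca, mycb, mych, mycla, and myb) were over 2-fold higher in double-positive cells, against 20.6% of all genes, and 1 (mybl1) was over 2-fold lower, against 21.9%. Between runx1 and gata2a single-positive cells, 3 genes (mycb, mych, and myb) were over 2-fold higher in the former, against 21.1% of all genes, and 0 in the latter, against 26.9%. In this last comparison mybl1 (adjusted p = 0.0378) and max (adjusted p = 0.00232, Fisher's exact test) were higher in gata2a single-positive cells by less than 2-fold. In either direction the members past 2-fold were 3, 6, and 3 of 9 in these comparisons, against 33.5%, 42.5%, and 48% of all genes.

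By the stricter rule of over 2-fold above each other library, 1 gene (myca) was enriched in double-positive cells, where the rule took 7.48% of all genes, and 1 (mycb) in runx1 single-positive cells, where it took 6.56%. None was in gata2a single-positive cells, where it took 16.1%. The highest RPM lay in double-positive cells for 5 of the 9 genes, mycn included (31.1% of all genes), in runx1 single-positive cells for 2 (31.6%), and in gata2a single-positive cells for 2 (37.3%), and 4 of the 8 genes above 1 RPM had their lowest value in gata2a single-positive cells (38.5%). With 9 members most of these counts were close to the shares over all genes and say nothing particular about the families. The count farthest above its background, picked from all of these, was that of 5 genes over 2-fold higher in double-positive than in gata2a single-positive cells. It was 4 with DESeq2 size factors and 6 with scaling without the top 20 genes.

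**Figure D3:**
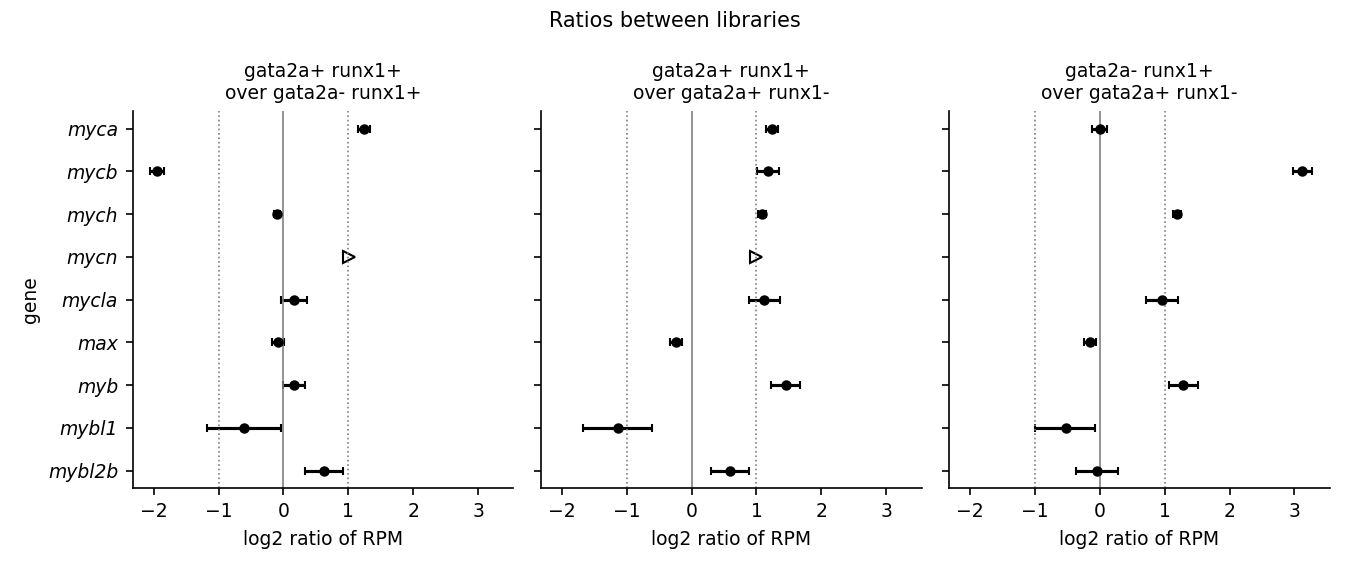
Log2 ratio of RPM between each pair of libraries for the 9 genes, with exact 95% intervals of counting error. Dotted lines mark 2-fold. Open triangles are ratios to the floor of 3 reads, drawn without intervals, and mycn is left out where both libraries are at 0. mycb lies at -1.95 in the left panel and 3.12 in the right one, while max stays within 0.24 of 0 in all 3.

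The genes around Myc were followed next. Of 21 further genes of the Myc network, 17 averaged 1 RPM or more, and their median log2 ratio of RPM + 1 was 0.05 between double-positive and runx1 single-positive cells, 0.24 between double-positive and gata2a single-positive cells, and 0.51 between runx1 and gata2a single-positive cells. Over all genes these medians were 0.07, 0.05, and -0.01, and the first median of the network was -0.03 with TMM factors. With no minimum level the last was 0.19. The further L-Myc gene myclb (ENSDARG00000034956) was at 18.3 RPM in double-positive cells, 23.4 RPM in runx1 single-positive cells, and 1.61 RPM in gata2a single-positive cells, with 149, 192, and 13 reads. It was 11.4-fold and 14.6-fold lower in gata2a single-positive cells than in the others, a larger ratio than that of mycla.

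Repressors that compete for Max did not share an order. mxd4 was at 4.19 RPM in double-positive cells, 27.2 RPM in runx1 single-positive cells, and 8.52 RPM in gata2a single-positive cells, 6.49-fold higher in the second than in the first, and like mycb it was highest in runx1 single-positive cells. mxd3, known from dividing progenitor cells in mouse, was at 5.54 RPM, 4.39 RPM, and 2.22 RPM. The 2 genes listed under MNT were both highest in double-positive cells, at 8.0 RPM and 19.9 RPM. The first was 2.53-fold above runx1 single-positive cells and the second 2.21-fold above gata2a single-positive cells. mxd1 had 3 reads or fewer in each library, and mxi1 was listed at 0 in all of them.

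Partners of the wider network went different ways as well. mlx, whose product like Max pairs with some Mxd proteins, was at 105.5 RPM, 59.0 RPM, and 130.6 RPM, lowest in runx1 single-positive cells. The kinase genes pim1 and pim3, whose products act beside Myc in mammalian blood tumours, were lowest in gata2a single-positive cells, by 2.49-fold and 8.04-fold against double-positive cells, while pim2 was highest there, at 102.3 RPM against 65.2 RPM. usp28, coding for a protease that removes ubiquitin from Myc in human cells, had 45 reads in gata2a single-positive cells and 3 or fewer in the others. Its ratio of gata2a single-positive to double-positive cells was 15.1 with the latter set to 3 reads.

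Genes that Myc is known to drive in mammals, for ribosome assembly, nucleotide and polyamine synthesis, and DNA replication, were lowest in gata2a single-positive cells. Of 39 such genes above 1 RPM, 33 had their lowest value there, against 38.5% of all genes, and 31 their highest value in runx1 single-positive cells, against 31.6%. Between double-positive and gata2a single-positive cells, 12 were over 2-fold higher in the former and 3 in the latter, against 20.6% and 21.9% of all genes, with a median log2 ratio of 0.71, beside 0.05 over all genes. Between runx1 and gata2a single-positive cells, 22 were over 2-fold higher in the former and 3 in the latter, against 21.1% and 26.9%, with a median of 1.07 beside -0.01. Between double-positive and runx1 single-positive cells none was over 2-fold higher in the former and 3 were in the latter, against 20.9% and 12.7%, with a median of -0.33 beside 0.07.

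Among them, rrp9, needed for processing of ribosomal RNA, was at 13.4 RPM, 26.4 RPM, and 4.45 RPM in double-positive, runx1 single-positive, and gata2a single-positive cells. odc1, coding for the first enzyme of polyamine synthesis, was at 908 RPM, 1898 RPM, and 876.8 RPM, highest in the runx1 single-positive library and close to level in the other two. cad, which codes for the enzyme that starts pyrimidine synthesis, was at 725 RPM, 956 RPM, and 266 RPM. hspe1, a mitochondrial chaperone gene, was 2.62-fold higher in runx1 single-positive than in double-positive cells. Of the 6 genes not lowest in gata2a single-positive cells, 4 were lowest in double-positive cells. These were c1qbp, ran, tert, and the more abundant of the genes listed under CCND2, a D cyclin. tert, the telomerase gene, was at 16.9 RPM, 40.0 RPM, and 27.7 RPM, and this CCND2 gene at 7.39 RPM, 8.29 RPM, and 22.4 RPM. The others were ldha, coding for a subunit of lactate dehydrogenase, and the rarer CCND2 gene. ldha was highest in gata2a single-positive cells, at 448 RPM against 176 RPM and 145 RPM. The rarer CCND2 gene was 6.69-fold higher there than in double-positive cells and 10.1-fold higher than in runx1 single-positive cells. These folds rest on few reads, 40 in gata2a single-positive, 6 in double-positive, and 4 in runx1 single-positive cells.

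**Figure D4:**
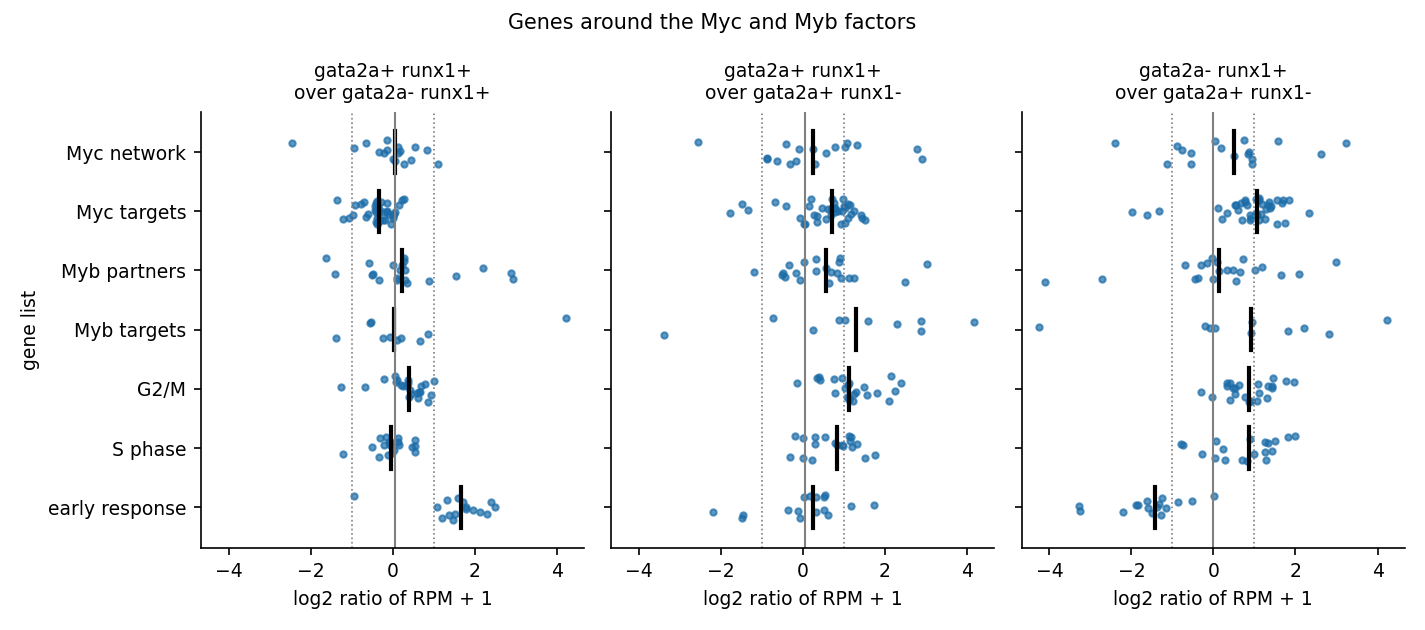
Log2 ratio of RPM + 1 for genes averaging 1 RPM or more in 7 gene lists, for each pair of libraries; each point is 1 gene, black bars are list medians, the grey line is the median of all genes, and dotted lines mark 2-fold. The Myc target medians are -0.33, 0.71, and 1.07 from left to right, and the early response medians are 1.66, 0.25, and -1.44.

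Partners of the Myb proteins were mixed. Of 21 genes above 1 RPM, which include the MuvB subunits, E2F and DP factors, and coactivators, 5 were over 2-fold higher in double-positive than in runx1 single-positive cells and 2 lower, and 5 were higher than in gata2a single-positive cells and 1 lower. The shares over all genes were 20.9% and 12.7%, then 20.6% and 21.9%, so the higher counts were near the background. lin9, coding for the MuvB subunit that holds B-Myb, was at 49.1 RPM, 39.9 RPM, and 25.2 RPM in double-positive, runx1 single-positive, and gata2a single-positive cells. foxm1, whose product joins B-Myb and MuvB at mitotic genes, was at 27.6 RPM, 25.6 RPM, and 12.2 RPM. Both were lowest in gata2a single-positive cells, and so was rbbp4, also of this list, at 631 RPM, 517 RPM, and 354 RPM. The MuvB subunit genes lin54, lin37, and lin52 did not share this order. lin54 was highest in gata2a single-positive cells, at 138 RPM against 101.1 RPM in double-positive and 85.8 RPM in runx1 single-positive cells. lin37 was at 6.52 RPM, 8.41 RPM, and 9.51 RPM, and lin52 at 3.82 RPM, 2.92 RPM, and 4.08 RPM. Neither of these differed detectably between any 2 libraries (adjusted p of 0.0649 or more, Fisher's exact test).

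Other partners stood out in 1 library. e2f5, coding for a repressive E2F factor, was at 13.1 RPM in double-positive cells and at 0.85 RPM and 0.74 RPM in the others, 15.3-fold and 17.6-fold higher. men1, the gene of menin, which bridges c-Myb to the MLL complex in human leukaemia cells, was at 162 RPM, 231 RPM, and 28.3 RPM, while kmt2a, the MLL gene itself, was 3.32-fold higher in runx1 single-positive than in double-positive cells. cebpa and cebpb, myeloid factors that act with c-Myb on granulocyte genes, were lowest in runx1 single-positive cells, with cebpb 7.48-fold higher in double-positive and 17.3-fold higher in gata2a single-positive cells.

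Genes reported as Myb targets in other settings were few and varied. Of 10 above 1 RPM, 6 were over 2-fold higher in double-positive than in gata2a single-positive cells and 1 lower, against 20.6% and 21.9% of all genes. Among the 6, ccnb1 is also counted with the G2 and M phase genes below. kita, coding for the stem cell factor receptor, was at 8.12 RPM, 4.75 RPM, and 0.25 RPM, and lmo2, coding for an adaptor of blood transcription complexes, at 171 RPM, 201 RPM, and 56.6 RPM, both lowest where myb was lowest. gfi1aa, coding for a transcriptional repressor and also picked out by the study from these libraries, was 28.6-fold and 26.4-fold higher in double-positive cells than in the others. In the qPCR of the paper, gfi1aa was also high in double-positive cells. The same qPCR found kita and myb in both mCherry-positive populations. tal1, a master regulator of blood formation, was highest in runx1 single-positive cells, 19.2-fold above gata2a single-positive cells. gata3, a lymphoid factor, was 10.8-fold and 19.9-fold higher in gata2a single-positive cells than in double-positive and runx1 single-positive cells.

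Genes of dividing cells were mostly lowest in gata2a single-positive cells. Of 23 G2 and M phase genes, 20 were highest in double-positive cells (31.1% of all genes) and 20 lowest in gata2a single-positive cells (38.5%). Between these libraries 16 were over 2-fold higher in the former (20.6%) and 0 in the latter (21.9%). cenpf, a kinetochore gene, was 5.96-fold higher, and cenpe, the gene of a kinetochore motor, was 4.04-fold higher in runx1 than in gata2a single-positive cells. Between double-positive and runx1 single-positive cells 1 was over 2-fold higher in the former (20.9%) and 1 in the latter (12.7%). These were nusap1 of the mitotic spindle, just past the limit at 2.01-fold, and kif23 of the dividing furrow at 2.51-fold. Of 19 S phase genes, 15 were lowest in gata2a single-positive cells (38.5%), with cdt1, which licenses replication origins, 3.55-fold and 4.15-fold below the others, and cdc6, a second licensing gene, was highest in runx1 single-positive cells at 26.0 RPM. The S phase genes mcm4 and mcm7 are also counted with the Myc targets above. The part of cell division in the Myc and Myb differences was not tested.

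Mammalian MYC, the counterpart of myca and mycb, is often counted among the immediate early genes. Such genes respond within minutes to stimulation or to cell handling. Of 16 other genes of this kind, 15 were over 2-fold higher in double-positive than in runx1 single-positive cells, against 20.9% of all genes, with fosl2 the highest at 6.17-fold and atf3 the exception. Between double-positive and gata2a single-positive cells, where myca differed by the same factor, 2 of the 16 were over 2-fold higher in the former, fosb at 3.55-fold and egr1 at 2.24-fold, and 3 in the latter, with klf2a at 5.35-fold, near or below the 20.6% and 21.9% of all genes. FOSL1, at 5.98-fold against the floor, was also higher in the former but had 18 reads there and averaged under 1 RPM, so it was not counted. In runx1 single-positive cells 14 of the 16 had their lowest value, and in gata2a single-positive cells 1 did. Of all genes 38.5% were lowest in gata2a single-positive cells, and the share lowest in runx1 single-positive cells was not counted. mycb went the other way, 3.86-fold higher in runx1 single-positive than in double-positive cells. The part of the early response in the myca and mycb differences was not tested.

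The genes with patterns most like those of the members were found by the distance of their log2(RPM + 1), centred over the 3 libraries, among 8803 named genes with at least 100 reads. Only 3 points define each pattern, so near neighbours are many: between 9 genes for mycb and 680 genes for max lay within 0.25. Nearest to myca were SLC12A7, si:dkey-28i19.3, and PREX1, at distances of 0.009, 0.012, and 0.035. Nearest to mycb were DMTN, SYNJ1, and arl4ab, at 0.135, 0.173, and 0.18. DMTN, coding for a protein of the red cell membrane skeleton, was at 1.6 RPM, 10.4 RPM, and 0.25 RPM. The last of these values lay under the floor of about 0.37 RPM. The added 1 RPM shrinks ratios at such low levels, so the closeness of DMTN to mycb is uncertain. Nearest to mych were ALDH5A1, GINS3, and QTRT1, and near to mycla were rhno1 and QSER1.

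The pattern of max was closest to r3hcc1, COPS4, and MAPKAPK3, at 0.005, 0.009, and 0.015. That of myb was closest to PER1, RAB23, and dsn1, a kinetochore gene at 52.8 RPM, 47.4 RPM, and 19.8 RPM, with distances of 0.02, 0.033, and 0.033. That of mybl1 was closest to MAP2K1, reep3a, and CDC123, and that of mybl2b to TRA2A, APBA3, and HDAC4. mycb had the fewest near neighbours of the 8 genes examined, 9 against 88 for myca and 192 for myb.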

How the data were processed

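Per the labels and the study's methods, the authors made cDNA from poly-A RNA by Quartz-Seq, aligned the reads to the GRCz11 genome (HISAT2 2.1.0), and derived RPM (Subread 1.6.4). The deposited RPM have 2 decimals. Annotation release, strand, and treatment of reads with several matches were not given in the sources used here, so reads shared by close paralogs are uncertain. Whole reads were recovered as the total at which 100.0% of values are whole (within 0.0051 RPM). Symbols came from a table of identifiers that lists myca and mycb under MYC. myca was fixed by its identifier, and mycb, mybl2b, and myclb were the remaining entries under MYC, MYBL2, and MYCL. Intervals are Wilson (RPM), exact binomial (shares), and exact conditional (ratios), from scipy 1.17.1. Folds used the study's limit of 2-fold, and a library at or under 3 reads was set to 3.

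The genes and lists were chosen with earlier results of these data known. Named genes are the 9 members, the extremes of each list past 2-fold, genes with a direct role beside a member, and the 3 nearest patterns, of which 1 is not reported here. Other list genes were named after their values were seen. Extremes of the cell type lists, which were set beside the labels, are not given. Alternatives were TMM factors of edgeR 4.0.16, size factors of DESeq2 1.42.0 (R 4.3.3), scaling without the top 20 genes, and other pseudocounts, minimums, and fold limits. Coordinates and sequences were not used here.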

Additional observations from a re-analysis of the deposited data

How the results depend on the processing

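No paired analysis was possible because each population has 1 library, and for the same reason no replicate could be left out and no count model could estimate a spread. Ratios of single genes kept their side of 2-fold in 122 checks, and 3 passed and 5 lost 2-fold. The exceptions were mycn, which rests on 6 reads, mych at 0.99 (log2, DESeq2 size factors, double-positive over gata2a single-positive), and mycla at 1.02 (scaling without the top 20 genes, runx1 over gata2a single-positive). The ratio of myca between the single-positive populations, near 0, changed sign under 2 scalings, and that of mybl2b under 1. Scaling moved log2 ratios by at most 0.10.

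Of the members over 2-fold higher in double-positive than in runx1 single-positive cells, 1 (myca) was counted in place of 2 under TMM factors, DESeq2 size factors, scaling without the top 20 genes, a minimum mean of 5 RPM, or a pseudocount of 1. With a limit of 3-fold there were 0. With this limit the 5 members higher in double-positive and the 1 higher in gata2a single-positive cells became 0 each, the 3 higher in runx1 than in gata2a single-positive cells became 1, and the 1 above both others in double-positive cells became 0. With a limit of 1.5-fold, 2 in place of 1 were higher in runx1 single-positive than in double-positive cells, and 3 in place of 1 were above both others in double-positive cells. Requiring that Fisher's exact test also gave an adjusted p below 0.05 left these member counts as they were.

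List medians between double-positive and runx1 single-positive cells that were near 0 changed sign: the Myc network with TMM factors (-0.03), and the Myb targets with TMM factors (-0.05) or a minimum mean of 5 RPM (-0.06). With no minimum, the median between runx1 and gata2a single-positive cells was 0.19 in place of 0.51 for the Myc network and 0.48 in place of 0.92 for the Myb targets, and that of the Myb targets between double-positive and gata2a single-positive cells was 1.05 in place of 1.30. With a minimum mean of 5 RPM the latter was 1.03, and that of the Myb partners between runx1 and gata2a single-positive cells was 0.47 in place of 0.13. The shares of reads per kb of transcript were not run, since no transcript lengths were used here. At this depth, mycn cannot be compared between libraries with any precision.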
